A study of Homo sapiens with 54 samples.

Results

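The effect of cigarette smoke extract on NCI-H460 cells was followed from an early to a late harvest, and each gene was sorted by when its effect was present. NCI-H460 is an established line from a large cell carcinoma of the human lung. The measure is a difference of differences: the effect of smoke extract at 24 h (smoke extract minus untreated) minus the same effect at 2 h, on the log2 scale. It rests on 12 of the 54 arrays of the series, 3 in each of 4 groups. The groups are untreated cells at 2 h, cells given smoke extract at 2 h, untreated cells at 24 h and cells given smoke extract at 24 h. All cells had been moved to medium without serum 24 h before. The extract was dosed to bring 5 uM nicotine and was added 2 h before a therapy step, which for these 12 cultures was no therapy. Harvest was counted from that step, so the cells had been with the extract for 4 h at the early harvest and 26 h at the late one. The other arrays belong to cells that were irradiated with 6 Gy, given 1 uM cisplatin, or given 5 uM nicotine in place of the extract, alone or in combination. The labels call the 3 cultures of a group biological replicates.

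Cigarette smoke carries polycyclic aromatic hydrocarbons, which bind the aryl hydrocarbon receptor (AHR). The receptor then enters the nucleus, pairs with ARNT and binds a short core motif in DNA, which switches on xenobiotic-metabolizing enzymes of the cytochrome P450 family and its own repressors. Smoke also carries reactive aldehydes and oxidants that act on other stress pathways. A response that is seen early can fade, hold or grow, and other genes can join it only later.

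Genes were tested with a linear model (limma), and a gene was called where the adjusted p-value was under 0.05 over all 18417 genes. A gene was sorted as transient where it was called at 2 h, where the difference between the times was called with the opposite sign, and where it was no longer called in the early direction at 24 h. It was sorted as sustained where it was called in the same direction at both times, with subdivisions for effects that grew, faded or had no called difference. It was sorted as late where it was not called at 2 h but was called at 24 h, with a called difference of the same sign. Transient genes thus include some that were called in the opposite direction at 24 h. Class counts and class medians therefore describe the sorting and were not tested. Levels of single arrays are log2 values as deposited, changes are given with the standard error (SE) of the fit, and fold changes rest on a logarithm base that was inferred.

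Arrays of a group were alike, with Pearson correlations from 0.99 to 0.996 in the 4 groups. No detection calls were used, so the mean over 456 rows of olfactory receptor, taste receptor and keratin-associated genes, which such cells should not express, stands for background. It ranged from 4.71 to 4.99 over the 12 arrays, and the outermost values of the cells given extract lay in replicates 2 and 3 of each time. These were 4.94 and 4.71 at 2 h, and 4.79 and 4.99 at 24 h. Of 9 leukocyte, 10 fibroblast and 9 endothelial markers measured, 1 had a called difference between the times, the macrophage gene CD68 (0.34 ± 0.10, adjusted p = 0.0325). Its call was lost without untreated 2 h replicates 2 or 3, smoke extract 2 h replicate 2, untreated 24 h replicate 1 or smoke extract 24 h replicate 1, with adjusted p up to 0.147. The 6 epithelial markers measured had 0 called differences, and over all genes 6.29% had one.

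Promoter sequences show where the known motifs sit for genes of the main patterns. They are RefSeq sequences on the human build GRCh38.p14, 5′ to 3′ on the gene's own strand, taken from the 250 bases before each gene's start and cut to 100 bases. Capitals mark the 1 motif for which each sequence is shown, searched on both strands. The first 5 are shown for the AHR core GCGTG, which reads CACGC on the other strand. They belong to genes whose early rise was still called at 24 h (CYP1A1, TIPARP, STC2) or no longer was (EFNA3, DUSP14). IL1A is shown for the AP-1 motif TGANTCA, and ASNS, which fell late, for the ATF4 motif TGATGNAA. The IL1A and ASNS windows also hold CACGC, left in lower case. The windows are chr15:74725529-74725628 on the minus strand for CYP1A1, chr3:156674382-156674481 on the plus strand for TIPARP, chr5:173328550-173328649 on the minus strand for STC2, chr1:155078685-155078784 on the plus strand for EFNA3, chr17:37489740-37489839 on the plus strand for DUSP14, chr2:112784494-112784593 on the minus strand for IL1A, and chr7:97872409-97872508 on the minus strand for ASNS.
CYP1A1: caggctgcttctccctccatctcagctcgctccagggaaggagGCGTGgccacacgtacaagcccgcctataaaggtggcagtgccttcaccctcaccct
TIPARP: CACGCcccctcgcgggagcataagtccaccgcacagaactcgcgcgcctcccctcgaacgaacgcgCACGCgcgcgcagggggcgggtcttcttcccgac
STC2: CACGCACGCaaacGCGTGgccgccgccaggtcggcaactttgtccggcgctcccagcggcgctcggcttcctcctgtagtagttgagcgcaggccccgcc
EFNA3: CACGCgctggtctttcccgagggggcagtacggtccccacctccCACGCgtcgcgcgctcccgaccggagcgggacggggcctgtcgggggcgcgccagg
DUSP14: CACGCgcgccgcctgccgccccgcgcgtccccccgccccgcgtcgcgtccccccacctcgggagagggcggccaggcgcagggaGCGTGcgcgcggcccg
IL1A: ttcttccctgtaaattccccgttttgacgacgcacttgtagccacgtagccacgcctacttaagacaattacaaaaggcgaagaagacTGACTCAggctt
ASNS: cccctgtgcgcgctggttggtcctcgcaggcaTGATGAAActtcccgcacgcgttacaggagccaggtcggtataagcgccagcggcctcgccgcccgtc

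The AHR core is short and common. It was present in 32.2% of the 35116 promoters in the table and in 39.7% of the 14239 tested genes that had a promoter there. Among genes with a promoter it was present in 18 of 33 transient genes that rose (54.5%), 75 of 166 sustained genes that rose (45.2%), 211 of 484 late genes that rose (43.6%) and 90 of 181 late genes that fell (49.7%). The sustained and the transient genes that fell held it in 43% and 33.7% of promoters. The AP-1 motif was in 7.83% of promoters of sustained genes that rose and in 4.91% of those of all tested genes, and the ATF4 motif in 1.1% of promoters of late genes that fell against 2.19%. These shares describe the letters in a window and were not tested.

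At 2 h the extract changed 695 genes (3.77% of those tested), of which 320 rose (1.74%) and 375 fell (2.04%). At 24 h it changed 2959 genes (16.1%), 1597 upward (8.67%) and 1362 downward (7.4%). The group means of these comparisons share no arrays, but the spread of each gene was estimated over all 54. Of the genes called at 2 h, 358 were also called at 24 h, which is 51.5% of the early and 12.1% of the late calls, and 340 of them moved the same way at both times. The difference between the times was called for 1159 genes (6.29%), with 857 higher (4.65%) and 302 lower (1.64%) at 24 h. Of these, 370 (2.01%) differed by over 1.5-fold, 212 higher (1.15%) and 158 lower (0.858%). The change came more from one side of the contrast. Untreated cells changed 354 genes from 2 h to 24 h (1.92%), and cells with extract changed 4833 (26.2%). The change in the cells with extract was the larger one for 789 of the 857 higher and 281 of the 302 lower genes.

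The sorting placed 152 genes as transient (37 that rose and 115 that fell at 2 h), 340 as sustained (214 and 126) and 818 as late (585 and 233). Another 203 genes called only at 2 h and 1783 called only at 24 h had no called difference and stayed unsorted. Sizes differed between the classes. The median effect of the transient genes that rose was 0.64 at 2 h and 0.04 at 24 h. That of the sustained genes with no called difference was 0.50 and 0.52 for those that rose and -0.40 and -0.42 for those that fell. Late genes that fell had medians of 0.01 and -0.63. Late genes that rose were many but small, with medians of -0.13 at 2 h and 0.36 at 24 h, and 63 of the 585 passed 1.5-fold. Transient genes that fell were similar, with medians of -0.40 and 0.13 and 13 of 115 past 1.5-fold. Over all genes the medians were -0.02 at 2 h and 0.01 at 24 h.

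The count of called differences depended on single arrays. It was 741 without untreated 2 h replicate 1, 580 without untreated 2 h replicate 2, 487 without smoke extract 2 h replicate 2, 600 and 702 without untreated 24 h replicates 1 and 2, and 668 and 676 without smoke extract 24 h replicates 1 and 3. Late genes numbered 524, 429, 362, 374, 460, 419 and 426 in the same order, and transient genes 95, 79 and 65 without the first 3 of these arrays. At 24 h 1903 genes were called without smoke extract 24 h replicate 3, and at 2 h 450 without smoke extract 2 h replicate 2. By direction, late genes that fell numbered 104 without smoke extract 24 h replicate 3, and late genes that rose 232, transient genes that fell 38 and sustained genes that fell 72 without smoke extract 2 h replicate 2. The split of the late genes turned to 374 that rose and 698 that fell for the mean over 3 therapies, and to 59 and 120 when every call also had to pass 1.5-fold. The larger share of higher differences also depended on scaling. Higher and lower genes numbered 782 and 495 after quantile normalization, and 1346 and 790 with the background mean of each array as a covariate. They numbered 658 and 1021 for the effect averaged over cells without therapy, irradiated and cisplatin-treated cells.

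**Figure D1:**
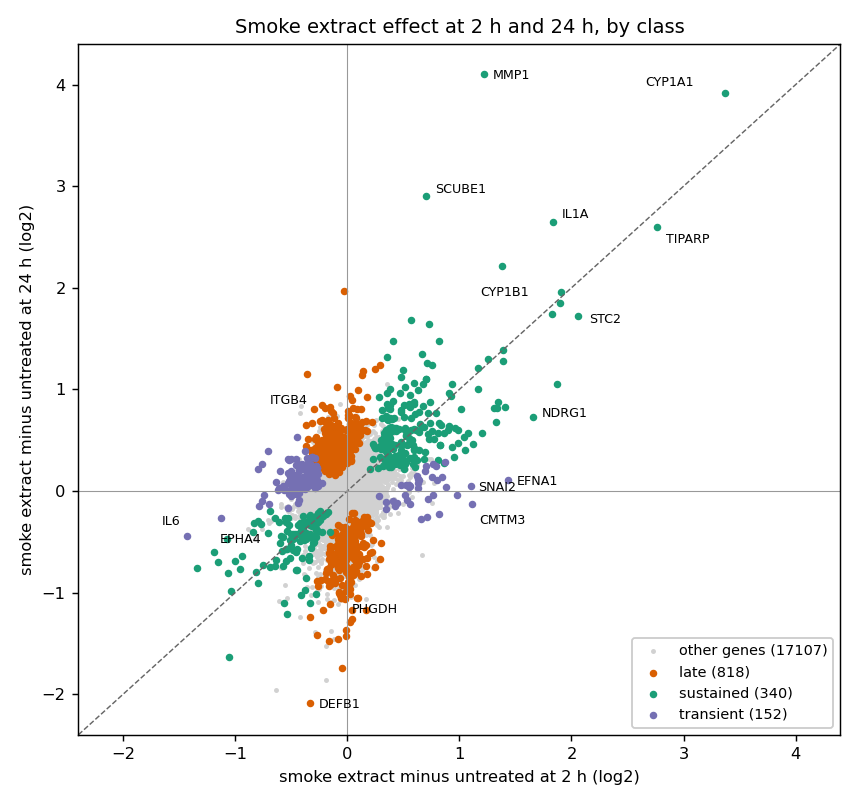
Effect of smoke extract at 2 h (x axis) and 24 h (y axis), both as log2 differences from untreated cells, with 1 point per gene for 18417 genes and colours for the classes. Sustained genes run along the dashed line of equal effects, and the late genes lie near 0 on the x axis. The transient genes lie near 0 on the y axis or past it on the opposite side. MMP1 and SCUBE1 (differences of 2.88 and 2.20) are well above the line.

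The sustained response that grew held 35 genes, 27 that rose and 8 that fell. MMP1 encodes interstitial collagenase, a secreted enzyme that cuts fibrillar collagen. Its levels were 6.96, 7.05 and 7.00 in untreated cells and 8.21, 8.13 and 8.33 with extract at 2 h. At 24 h they were 6.11, 6.24 and 6.42 in untreated cells and 10.21, 10.55 and 10.33 with extract. The groups did not overlap at either time, and untreated cells held less MMP1 late than early (-0.75 ± 0.13, adjusted p = 0.000295). The effect went from 1.22 ± 0.13, a 2.33-fold increase, to 4.10 ± 0.13, a 17.2-fold increase, and the difference was 2.88 ± 0.18 (adjusted p = 6.03e-16). Of 19 metalloproteinases and inhibitors measured, MMP1 was the 1 with a called difference, a share close to the 6.29% of all genes.

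SCUBE1, which encodes a secreted and cell surface protein with EGF-like repeats, had levels of 7.19, 7.19 and 7.24 in untreated cells at 2 h and 8.09, 7.71 and 7.92 with extract. At 24 h untreated cells had 7.08, 7.11 and 7.30 and cells with extract 10.09, 10.03 and 10.06. Untreated cells stayed in 1 range while each step with extract was above the last. The effect went from 0.70 ± 0.10 to 2.90 ± 0.10, with a difference of 2.20 ± 0.14 (adjusted p = 2.42e-15). FMOD encodes fibromodulin, a collagen-binding proteoglycan of the extracellular matrix. It rose by 0.57 ± 0.10 at 2 h and 1.69 ± 0.10 at 24 h, a difference of 1.12 ± 0.15 (adjusted p = 2.08e-06). Its untreated levels, 5.50 to 5.86, lay near the background mean, so its fold changes are at best lower bounds. VIT, for the matrix protein vitrin, rose by 0.40 ± 0.09 and then 1.47 ± 0.09 (difference 1.07 ± 0.13, adjusted p = 2.32e-07). ALDH3A1, an aldehyde dehydrogenase that is an AHR target, rose by 0.38 ± 0.08 and then 1.01 ± 0.08 (difference 0.63 ± 0.11, adjusted p = 0.000224).

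IL1A encodes the inflammatory cytokine interleukin 1 alpha. Its levels were 6.27, 6.44 and 6.23 untreated and 8.22, 7.98 and 8.24 with extract at 2 h, then 6.43, 6.22 and 6.24 untreated and 8.95, 9.10 and 8.80 with extract at 24 h. The untreated groups overlapped each other, and all cells with extract lay above them, higher at 24 h than at 2 h. The difference was 0.82 ± 0.22 (adjusted p = 0.0202), and its call was lost without replicate 2 of untreated 2 h, smoke extract 2 h or untreated 24 h (adjusted p up to 0.0791). Of 14 genes of the interleukin 1 family and its receptors, IL1A was the 1 with a called higher difference, beside 4.65% of all genes. The receptor subunit gene IL1RAP was the 1 with a lower difference (-0.84 ± 0.23, adjusted p = 0.0228), beside 1.64% of all genes. The call of IL1RAP was lost without smoke extract 2 h replicate 3, untreated 24 h replicate 1 or smoke extract 24 h replicate 1 (adjusted p up to 0.0709). Of the growing genes that fell, LYPD1 went from 8.59, 8.61 and 8.53 to 8.13, 8.06 and 8.29 at 2 h, and from 8.66, 8.64 and 8.63 to 7.64, 7.77 and 7.44 at 24 h. The groups were apart at both times, and the effects were -0.41 ± 0.09 and -1.03 ± 0.09 (adjusted p of the difference = 0.00172). LYPD1 and CACNB2, the gene of a calcium channel subunit (-0.54 ± 0.08 and -1.21 ± 0.08), were singled out after their values were seen.

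**Figure D2:**
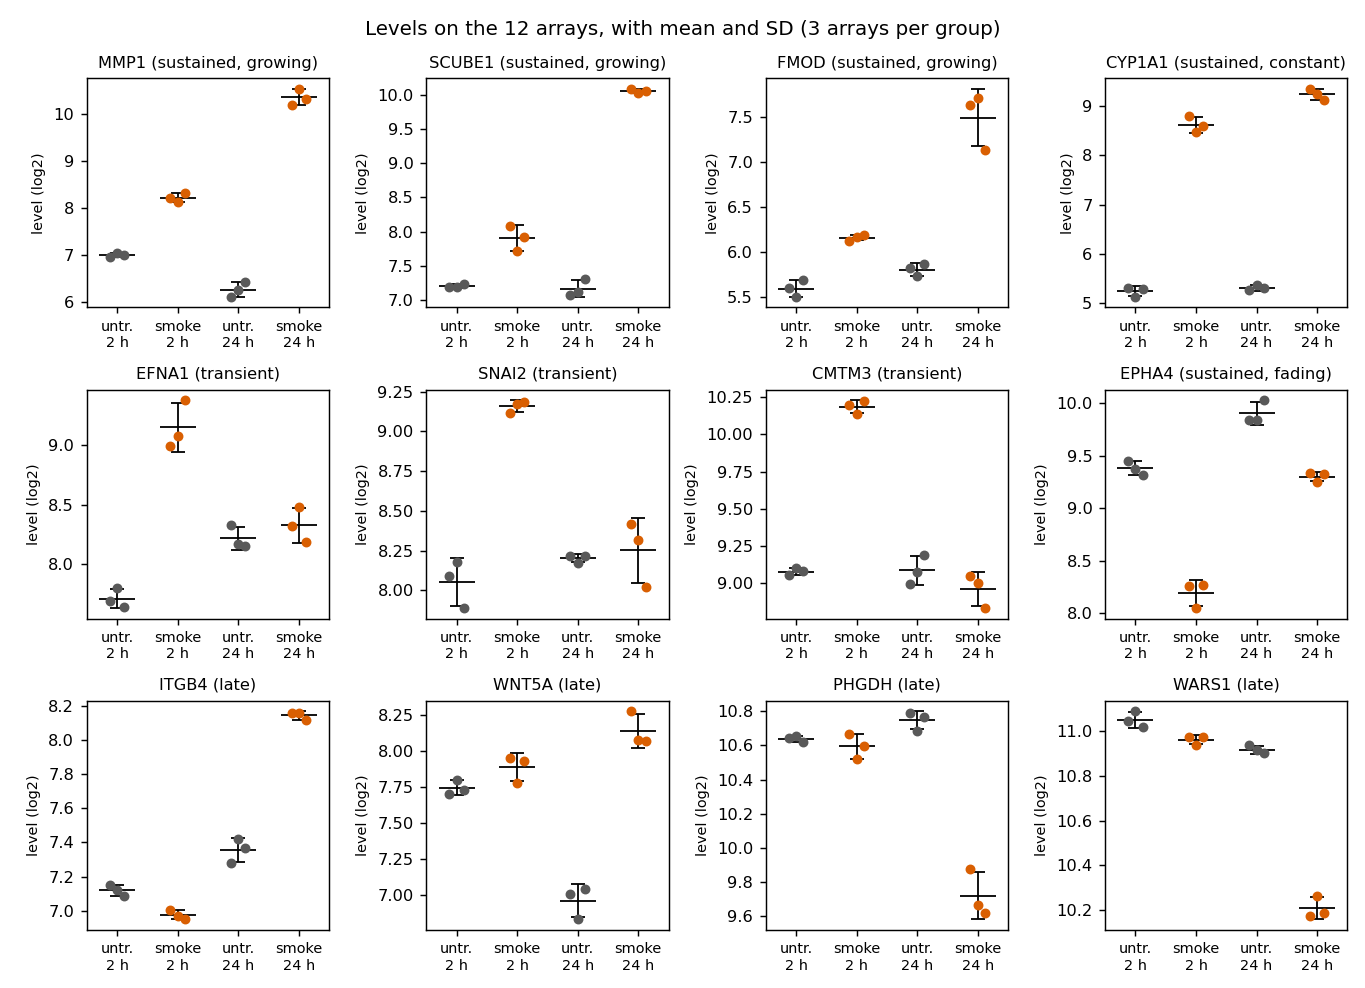
Levels of 12 genes (log2, as deposited) on the 12 arrays, grey for untreated cells and orange for cells with smoke extract, with the mean and SD of 3 arrays as bars. MMP1, SCUBE1 and FMOD step up at each time, CYP1A1 is high at both times, EFNA1, SNAI2 and CMTM3 are apart from untreated cells at 2 h and overlap them at 24 h, EPHA4 is lower with extract at both times, and ITGB4, WNT5A, PHGDH and WARS1 have a wide gap at 24 h and a small one or an overlap at 2 h.

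Several genes of the AHR list rose at both times with no called difference, which does not show that their effect was constant. CYP1A1, the cytochrome P450 enzyme that oxidizes polycyclic hydrocarbons, had levels of 5.31, 5.13 and 5.29 untreated and 8.78, 8.47 and 8.59 with extract at 2 h. At 24 h it had 5.26, 5.37 and 5.31 untreated and 9.34, 9.23 and 9.11 with extract. Both pairs of groups were far apart, and the untreated levels were close to background, so folds are at best lower bounds. The effect was 3.37 ± 0.14 at 2 h and 3.91 ± 0.14 at 24 h, and the difference of 0.54 ± 0.19 was not called (adjusted p = 0.081). In irradiated cells the same difference was 1.31 ± 0.19 (adjusted p = 5.43e-06) and with cisplatin 0.69 ± 0.19 (adjusted p = 0.0413). A test of the 3 therapies against each other did not call CYP1A1 (adjusted p = 0.323).

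TIPARP encodes an ADP-ribosyltransferase that represses AHR. It went from 7.54, 7.73 and 7.56 to 10.29, 10.35 and 10.48 at 2 h, and from 7.50, 7.47 and 7.58 to 10.20, 10.07 and 10.07 at 24 h. The early and late effects, 2.76 ± 0.09 and 2.60 ± 0.09, were within their error of each other (difference -0.16 ± 0.13, adjusted p = 0.574). CYP1B1, a related P450 gene, rose by 1.90 ± 0.08 and 1.85 ± 0.08 (difference -0.05 ± 0.11, adjusted p = 0.906). STC2, the gene of the secreted glycoprotein stanniocalcin 2, rose by 2.06 ± 0.10 and 1.72 ± 0.10 (difference -0.34 ± 0.15, adjusted p = 0.168). Of 11 genes in the AHR list, 6 rose and 1 fell at 2 h, 8 rose at 24 h, and 3 had a higher and 0 a lower difference. Over all genes 1.74% rose and 2.04% fell at 2 h, 8.67% rose at 24 h, and 4.65% had a higher difference. These 3 were ALDH3A1, AHR and its partner ARNT (0.46 ± 0.12, adjusted p = 0.0165). The difference for ARNT lost its call without smoke extract 2 h replicate 2 or smoke extract 24 h replicate 1 (adjusted p up to 0.0591). The median effect of the list was 0.38 at 2 h and 0.46 at 24 h, and that of the difference 0.08 beside 0.02 over all genes.

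AHR itself was a late gene. Its levels were 9.99, 10.05 and 9.97 untreated and 9.80, 9.76 and 9.79 with extract at 2 h, then 9.94, 9.94 and 9.91 untreated and 10.33, 10.42 and 10.40 with extract at 24 h. The cells with extract lay below the untreated ones early and above them late. The early effect of -0.22 ± 0.08 was not called (adjusted p = 0.141), the late one was 0.46 ± 0.08 (adjusted p = 4.74e-05), and the difference was 0.68 ± 0.11 (adjusted p = 0.000136). The difference was 0.19 ± 0.11 in irradiated and 0.32 ± 0.11 in cisplatin-treated cells, and neither was called (adjusted p = 0.799 and 0.112). Targets of NRF2, the regulator of the oxidant response, numbered 25. At 2 h 2 rose and 1 fell (1.74% and 2.04% of all genes), at 24 h 11 rose and 1 fell (8.67% and 7.4%), and 3 had a called higher difference (4.65%). AKR1B10, for an aldo-keto reductase that clears reactive aldehydes, went from 0.03 ± 0.08 to 0.56 ± 0.08 (difference 0.52 ± 0.11, adjusted p = 0.00181). That call was lost with nicotine arrays as controls. The drug exporter genes ABCC2 and ABCC3 were the others, with differences of 0.27 ± 0.09 (adjusted p = 0.0488) and 0.68 ± 0.12 (adjusted p = 0.000277). ABCC3 turned direction and was sorted as transient, being the 1 gene of the list called lower at 2 h. On leaving out single arrays its effect lay between -0.44 and -0.27 at 2 h and between 0.27 and 0.41 at 24 h. Its 2 h call was lost without replicate 2 of either 2 h group, and its 24 h call without smoke extract 24 h replicate 3. The call of ABCC2 was lost on leaving out any array other than smoke extract 2 h replicate 3 and smoke extract 24 h replicate 2 (adjusted p up to 0.172).

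A smaller set rose early and faded without being lost, 16 genes in all, and 6 that fell early faded likewise. NDRG1, a gene of growth arrest and hypoxia, went from 7.69, 7.70 and 7.55 to 9.37, 9.23 and 9.32 at 2 h, and from 7.97, 8.00 and 8.24 to 8.83, 8.72 and 8.84 at 24 h. Both pairs of groups stayed apart, with the gap narrowed from both sides. The effect was 1.66 ± 0.08 and then 0.73 ± 0.08, a difference of -0.93 ± 0.12 (adjusted p = 9.55e-07). The receptor gene of vitamin D, VDR, rose by 1.30 ± 0.08 and 0.81 ± 0.08 (adjusted p of the difference = 0.00675), and TIAM1, for an activator of the GTPase RAC, by 1.05 ± 0.09 and 0.40 ± 0.09 (adjusted p = 0.00187). VDR and TIAM1 were named after their values were seen.

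Among feedback regulators of MAP kinase signalling the phosphatase genes moved differently from one another. DUSP6, whose product dephosphorylates ERK, went from 9.14, 9.19 and 9.15 to 8.10, 7.87 and 8.28 at 2 h, and from 9.84, 9.76 and 9.91 to 9.39, 9.40 and 9.32 at 24 h. It fell by 1.08 ± 0.10 and then 0.47 ± 0.10, with a difference of 0.61 ± 0.14 (adjusted p = 0.00594). Untreated cells gained DUSP6 over the same time (0.68 ± 0.10, adjusted p = 2.55e-05). DUSP14 was transient: its levels were 8.38, 8.52 and 8.40 untreated and 8.99, 9.18 and 9.25 with extract at 2 h, then 8.29, 8.34 and 8.36 untreated and 8.10, 8.11 and 8.00 with extract at 24 h. It was above untreated cells early and below them late, with effects of 0.71 ± 0.10 and -0.26 ± 0.10 and a difference of -0.96 ± 0.14 (adjusted p = 6.94e-06). DUSP1, an immediate early phosphatase gene, fell by 1.15 ± 0.11 and 0.70 ± 0.11, and the difference was not called (adjusted p = 0.0646). Of 16 such regulators 3 had a higher and 2 a lower difference, beside 4.65% and 1.64% of all genes. Of the 3, SPRED2 lost its call on leaving out any array other than untreated 2 h replicate 3, untreated 24 h replicate 3 and smoke extract 24 h replicate 2 (adjusted p up to 0.115).

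Of the 37 transient genes that rose, 6 are described here. EFNA1 encodes ephrin-A1, a membrane-bound ligand of Eph receptors. Its levels were 7.70, 7.80 and 7.64 untreated and 8.99, 9.07 and 9.38 with extract at 2 h, then 8.33, 8.17 and 8.16 untreated and 8.32, 8.48 and 8.18 with extract at 24 h. The groups were apart early and overlapped late. The effect was 1.43 ± 0.12 at 2 h and 0.11 ± 0.12 at 24 h, and the difference was -1.32 ± 0.17 (adjusted p = 1e-06). Untreated cells gained EFNA1 (0.51 ± 0.12, adjusted p = 0.0123) while cells with extract lost it (-0.82 ± 0.12, adjusted p = 1.06e-06).

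CMTM3, a gene of a membrane protein of the chemokine-like factor family, had levels of 9.05, 9.10 and 9.08 untreated and 10.20, 10.14 and 10.23 with extract at 2 h. At 24 h it had 8.99, 9.08 and 9.19 untreated and 9.05, 9.00 and 8.83 with extract. The early gap was gone, and untreated cells held their level. The effects were 1.11 ± 0.09 and -0.13 ± 0.09, and the difference was -1.23 ± 0.13 (adjusted p = 1.29e-08). SNAI2, the gene of the transcription factor Slug, which represses epithelial genes, went from 8.09, 8.18 and 7.89 to 9.12, 9.17 and 9.19 at 2 h, and had 8.22, 8.17 and 8.22 untreated and 8.42, 8.32 and 8.02 with extract at 24 h. The late groups overlapped, and the effects were 1.11 ± 0.12 and 0.05 ± 0.12 (difference -1.06 ± 0.17, adjusted p = 6.24e-05). CDC42EP2, for an effector of the GTPase CDC42, rose by 0.98 ± 0.09 and was at -0.04 ± 0.09 late (difference -1.02 ± 0.12, adjusted p = 4.38e-07). KIF23 encodes a motor protein of the midbody in cell division. It rose by 0.80 ± 0.11 and was at 0.10 ± 0.11 late (difference -0.70 ± 0.16, adjusted p = 0.00619). KIF23 was the 1 gene of 39 in the mitosis list called upward at 2 h, beside 1.74% of all genes. FOSL2, an AP-1 subunit gene, rose by 0.51 ± 0.08 and was at -0.04 ± 0.08 late (difference -0.55 ± 0.11, adjusted p = 0.00187).

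Of the 20 measured cytokine and NF-kB target genes, 3 fell at 2 h and were not called lower at 24 h, with a called higher difference: IL6, CXCL8 and CXCL1. IL6 encodes the cytokine interleukin 6. Its levels were 9.16, 9.21 and 9.12 untreated and 7.79, 7.70 and 7.73 with extract at 2 h, then 9.39, 9.37 and 9.25 untreated and 8.81, 9.16 and 8.71 with extract at 24 h. Late levels with extract were spread and still all below untreated ones. The effect was -1.43 ± 0.21 early (adjusted p = 3.77e-06) and -0.44 ± 0.21 late (adjusted p = 0.165). The difference of 0.98 ± 0.30 (adjusted p = 0.0379) lost its call on leaving out any array other than smoke extract 24 h replicate 3, with adjusted p up to 0.0932, after quantile normalization, with a robust variance prior and over all rows of the table. The chemokine gene CXCL1 went from 10.61, 10.55 and 10.62 to 10.11, 10.15 and 9.95 at 2 h, and from 10.99, 11.12 and 11.11 to 11.36, 11.46 and 11.31 at 24 h. The direction turned, with all arrays with extract below the untreated ones early and above them late. The effects were -0.52 ± 0.14 and 0.30 ± 0.14, and the difference was 0.83 ± 0.20 (adjusted p = 0.00733). The early call was lost without untreated 2 h replicates 1 or 3 or smoke extract 2 h replicate 3 (adjusted p up to 0.0929), and the late effect was not called (adjusted p = 0.141). Of the whole list 2 rose and 5 fell at 2 h (1.74% and 2.04% of all genes), 6 rose and 2 fell at 24 h (8.67% and 7.4%), and 5 had a higher and 0 a lower difference (4.65% and 1.64%). Of these 5, CXCL1 and TNFAIP2 kept the call on leaving out each array. That of NFKB2 (adjusted p = 0.049) was lost without any 1 of the 12 arrays (up to 0.117). That of CXCL8 (adjusted p = 0.0345) was lost on leaving out any array other than untreated 2 h replicate 3, smoke extract 2 h replicate 1, untreated 24 h replicate 3 and smoke extract 24 h replicate 1 (up to 0.11). The list's median effect was -0.12 early and 0.11 late.

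Other genes of this kind were TNS2, for the focal adhesion protein tensin 2, with effects of -0.76 ± 0.10 and 0.27 ± 0.10 (difference 1.03 ± 0.14, adjusted p = 6.48e-06), and SHC4, for an adaptor of receptor tyrosine kinases. SHC4 had 7.45, 7.47 and 7.45 untreated and 6.61, 6.64 and 6.99 with extract at 2 h, then 6.88, 6.82 and 7.10 untreated and 7.37, 7.34 and 7.25 with extract at 24 h. Untreated cells lost SHC4 over time (-0.52 ± 0.12, adjusted p = 0.0143) and cells with extract gained it (0.57 ± 0.12, adjusted p = 0.000435), so that the order of the groups turned. The difference was 1.10 ± 0.18 (adjusted p = 8.66e-05). Its late effect of 0.39 ± 0.12 lost its call without replicates 1 or 2 of untreated 24 h or of smoke extract 24 h (adjusted p up to 0.123). TGFB2, the gene of a transforming growth factor beta ligand, was at -0.46 ± 0.06 and then -0.03 ± 0.06 (difference 0.43 ± 0.09, adjusted p = 0.0021). SLC38A2, an amino acid transporter gene, was at -0.33 ± 0.05 and 0.07 ± 0.05 (difference 0.40 ± 0.07, adjusted p = 0.000173).

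Of the 585 late genes that rose, a few are described here. ITGB4 encodes integrin beta 4, which anchors epithelial cells to the basement membrane. Its levels were 7.15, 7.12 and 7.09 untreated and 7.01, 6.97 and 6.95 with extract at 2 h, then 7.28, 7.42 and 7.37 untreated and 8.16, 8.16 and 8.11 with extract at 24 h. Cells with extract lay just below untreated cells early and clearly above them late. The effects were -0.14 ± 0.07 (adjusted p = 0.438) and 0.79 ± 0.07, and the difference was 0.93 ± 0.10 (adjusted p = 2.49e-08). WNT5A, the gene of a secreted Wnt ligand, had 7.70, 7.80 and 7.73 untreated and 7.95, 7.78 and 7.93 with extract at 2 h, then 7.01, 6.83 and 7.04 untreated and 8.28, 8.08 and 8.07 with extract at 24 h. Here the untreated cells moved: they fell by 0.79 ± 0.11 (adjusted p = 2.55e-05), and cells with extract changed by 0.25 ± 0.11 (adjusted p = 0.0997). The difference was 1.04 ± 0.16 (adjusted p = 5.75e-05). TXNIP, which restrains thioredoxin and glucose uptake, had the same form, with a fall of 0.61 ± 0.10 in untreated cells, a change of 0.11 ± 0.10 with extract and a difference of 0.72 ± 0.14 (adjusted p = 0.00111).

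IGFBP2, for a binding protein of insulin-like growth factors, went from 0.04 ± 0.08 to 0.90 ± 0.08 (difference 0.85 ± 0.12, adjusted p = 4.97e-06). CALB2, for the calcium-binding protein calretinin, went from 0.13 ± 0.10 to 1.14 ± 0.10 (difference 1.01 ± 0.14, adjusted p = 2.61e-06). KCND3, a potassium channel gene, went from 0.25 ± 0.10 to 1.20 ± 0.10 (difference 0.96 ± 0.15, adjusted p = 4.17e-05) from untreated levels of 5.20 to 5.61, near background. MUC1, for a membrane mucin, went from -0.09 ± 0.08 to 0.55 ± 0.08 (difference 0.63 ± 0.11, adjusted p = 0.000432), and GJA5, for a gap junction protein, from 0.01 ± 0.08 to 0.72 ± 0.08 (difference 0.71 ± 0.11, adjusted p = 6.99e-05). ITGB4, IGFBP2, MUC1 and GJA5 were singled out after their values were seen, because they were late genes in all 3 therapies. The most positive late difference was that of LIF-AS2, an RNA named as antisense to LIF, at 2.00 ± 0.41 (adjusted p = 0.00187). Its levels with extract at 24 h, 8.83, 9.09 and 8.82, were apart from 6.67 to 7.23 in the 9 other arrays.

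Among the 233 late genes that fell were 7 of the 15 measured genes of a list for serine, one-carbon and cysteine synthesis. That list also holds the asparagine synthetase gene ASNS, which is 1 of the 7. PHGDH encodes the enzyme of the first step of serine synthesis from glucose. Its levels were 10.64, 10.65 and 10.62 untreated and 10.67, 10.52 and 10.60 with extract at 2 h, then 10.79, 10.69 and 10.77 untreated and 9.88, 9.66 and 9.62 with extract at 24 h. The early groups overlapped and the late ones did not. The effects were -0.04 ± 0.13 and -1.03 ± 0.13, and the difference was -0.98 ± 0.19 (adjusted p = 0.00088). PSAT1, the next enzyme, was at 0.00 ± 0.10 and at -0.80 ± 0.10 (difference -0.80 ± 0.14, adjusted p = 0.000209). CTH, which makes cysteine, was at -0.05 ± 0.15 and -0.93 ± 0.15 (difference -0.88 ± 0.21, adjusted p = 0.00912). ASNS, asparagine synthetase, whose promoter carries the ATF4 motif shown above, was at -0.06 ± 0.08 and -0.57 ± 0.08 (difference -0.51 ± 0.11, adjusted p = 0.00271).

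Of the 15 genes of the serine, one-carbon and cysteine list, ASNS among them, 0 were called at 2 h. Over all genes 3.77% were, a share so low that 0 says little for a list of this size. At 24 h 9 fell and 0 rose (7.4% and 8.67% of all genes). The difference was lower for 7 and higher for 0, beside 1.64% of all genes lower. The list's median effect was -0.05 early and -0.36 late. In cells whose group means the sorting did not use, 4 of the 15 had a lower difference after radiation and 10 with cisplatin. Of all genes 1.87% and 2.28% had a lower difference there. Besides PHGDH, PSAT1, CTH and ASNS, those with a lower difference without therapy were the one-carbon genes SHMT2 (-0.30), MTHFD2 (-0.41) and ALDH1L2 (-0.50). The call of ALDH1L2 was lost on leaving out any array other than smoke extract 2 h replicate 2 and untreated 24 h replicate 3 (adjusted p up to 0.104). The transcript of ATF4, the transcription factor of the amino acid response, was at -0.01 ± 0.07 early and -0.04 ± 0.07 late. A list for ATF4 and the unfolded protein response held 26 genes. Of these, 2 rose and 3 fell at 2 h (1.74% and 2.04% of all genes). At 24 h 1 rose and 6 fell (8.67% and 7.4%), and 1 had a higher and 1 a lower difference (4.65% and 1.64%). Aminoacyl-tRNA synthetases were mixed, with 3 of 19 lower and 2 higher in the difference, beside 1.64% and 4.65% of all genes. The gene that charges tryptophan, WARS1, went from 11.04, 11.09 and 11.02 to 10.98, 10.94 and 10.98 at 2 h, and from 10.94, 10.91 and 10.90 to 10.17, 10.26 and 10.18 at 24 h. The gap was wide only at the late harvest (-0.09 ± 0.06 and -0.71 ± 0.06, difference -0.62 ± 0.08, adjusted p = 1.04e-06).

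**Figure D3:**
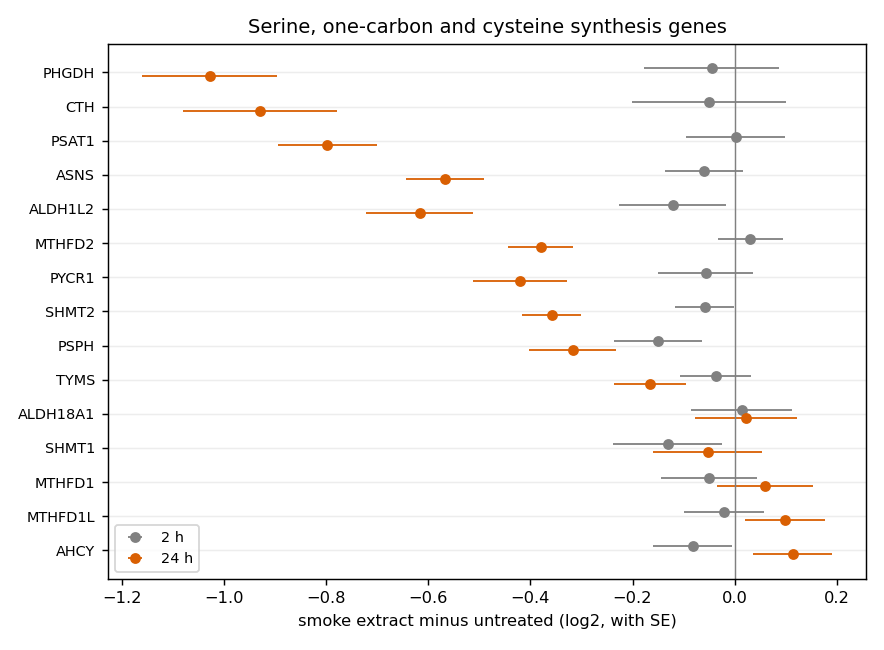
Effect of smoke extract (log2, smoke extract minus untreated, with SE from the fit) on the 15 genes of the serine, one-carbon and cysteine list. The list includes ASNS, and genes are ordered by the difference, with grey points for 2 h and orange for 24 h. The grey points lie near 0, and 9 of the 15 orange points are called below 0, down to -1.03 for PHGDH.

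Other late genes that fell had separate roles. AURKA, a kinase of the mitotic spindle, went from 10.19, 10.14 and 10.26 to 10.08, 10.05 and 10.02 at 2 h, and from 10.28, 10.16 and 10.27 to 9.21, 9.42 and 9.35 at 24 h. The effects were -0.15 ± 0.10 and -0.91 ± 0.10 (difference -0.76 ± 0.15, adjusted p = 0.00104). It was the 1 late gene of 39 in the mitosis list, of which 15 fell at 24 h (7.4% of all genes) and 2 had a lower difference (1.64%). NR4A3, an orphan nuclear receptor gene, was at 0.17 ± 0.12 and -0.81 ± 0.12 (difference -0.98 ± 0.17, adjusted p = 0.000214). NR4A1, its relative, was sustained at -1.04 ± 0.11 and -0.98 ± 0.11. DEFB1, for the antimicrobial peptide beta-defensin 1, had 7.73, 7.74 and 7.42 untreated and 7.42, 7.10 and 7.36 with extract at 2 h, then 8.37, 8.35 and 8.39 untreated and 6.06, 6.72 and 6.07 with extract at 24 h. The groups touched early and were far apart late, with a difference of -1.75 ± 0.35 (adjusted p = 0.00139). ALDH1A1, a retinaldehyde dehydrogenase gene, was at -0.08 ± 0.10 and -0.75 ± 0.10 (difference -0.67 ± 0.14, adjusted p = 0.0021). Replication-dependent histone genes (17 of 33) and oxidative phosphorylation genes (16 of 28) fell at 24 h, beside 7.4% of all genes. In each list 3 had a called lower difference, beside 1.64% of all genes. At 2 h 0 in either list were called, beside 3.77% of all genes, a share so low that 0 says little for lists of this size. The 3 histone genes, H1-5, H2BC8 and H3C12, all lost the call without any 1 of the 3 untreated 2 h arrays, smoke extract 2 h replicates 2 or 3, untreated 24 h replicates 1 or 2 or smoke extract 24 h replicate 3 (adjusted p up to 0.139, 0.181 and 0.145). Of the oxidative phosphorylation genes, NDUFS3 kept it on leaving out each array. COXFA4 lost it on leaving out any array other than smoke extract 24 h replicate 2 (up to 0.207), and SDHD on leaving out any array other than that and smoke extract 2 h replicate 1 (up to 0.11). Near-identical histone genes can share probes.

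The classes were read again in cells that had been irradiated or given cisplatin, where extract with therapy was compared with therapy alone on other arrays. The group means of these arms share no arrays with those of the sorting or with each other. The spread of each gene was estimated over all 54 arrays, so the calls are not fully separate. The extract changed 2.66% of genes at 2 h and 8.23% at 24 h in irradiated cells, with 2.34% called for the difference, and 5.46%, 28.6% and 2.62% with cisplatin. Of the 214 sustained genes that rose, 145 (67.8%) were sustained and rose in irradiated cells, 166 (77.6%) did so with cisplatin and 132 in both. Over all genes this class held 0.988% and 1.6%. Sustained genes that fell recurred in 39.7% and 61.9% of cases, beside 0.581% and 1.34% of all genes in that class. Of the 37 transient genes that rose, 16 (43.2%) and 24 (64.9%) were again transient upward, and 11 in both, among them SNAI2, EFNA3, DUSP14 and KIF23. The class held 0.261% and 0.592% of all genes. Late genes that fell recurred in 39 (16.7%) and 72 (30.9%) of 233 cases, and 35 in both, among them PHGDH, ASNS, WARS1, AURKA and ALDH1A1. The class held 1.47% and 1.46% of all genes.

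Of 585 late genes that rose, 28 (4.79%) were late and rose after radiation and 8 (1.37%) with cisplatin, and 6 did so in both. Over all genes this class held 56 (0.304%) and 37 (0.201%). Of 115 transient genes that fell, 5 (4.35%) and 4 (3.48%) were transient again, and 1 in both, the interferon-inducible gene SLFN5. Over all genes that class held 7 (0.038%) after radiation and 4 (0.0217%) with cisplatin. Whether called or not, 449 and 445 of the 585 late genes that rose had a difference of the same sign. These include the called ones, so signs had to be kept at least as often as calls. Shares of the same sign have no value over all genes beside them and were not tested. For the 63 past 1.5-fold, 62 and 57 had the same sign, and 16 (25.4%) and 7 (11.1%) were called. For the 522 others 15 (2.87%) and 6 (1.15%) were called. The share of all genes with a called higher difference was 0.467% after radiation and 0.348% with cisplatin, and with a lower one 1.87% and 2.28%. Across all 18417 genes, which are not independent, the difference between the times correlated with that in irradiated cells at r = 0.236 and with that in cisplatin-treated cells at r = 0.356.

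**Figure D4:**
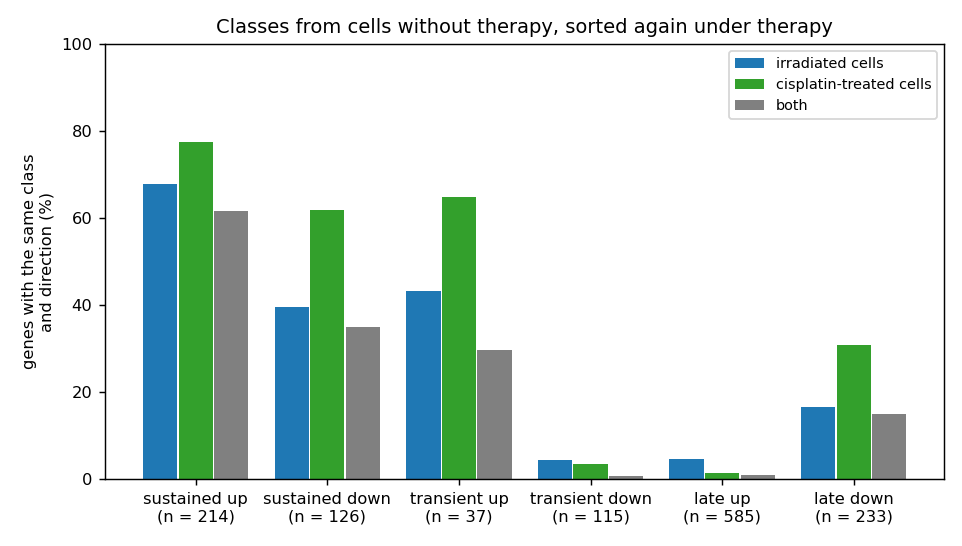
Percent of the genes of each class and direction, sorted in cells without therapy, that fell into the same class and direction in irradiated cells (blue), cisplatin-treated cells (green) or both (grey). The bars reach 67.8% and 77.6% for sustained genes that rose and stay under 5% for transient genes that fell and late genes that rose.

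The difference for MMP1 was 3.61 ± 0.18 after radiation and 2.79 ± 0.18 with cisplatin, beside 2.88 ± 0.18 without therapy. That for SCUBE1 was 2.10 ± 0.14 and 1.78 ± 0.14, and for SNAI2 -1.26 ± 0.17 and -0.92 ± 0.17, all called. EFNA1 was called after radiation (-1.14 ± 0.17, adjusted p = 5.43e-06) but not with cisplatin (-0.53 ± 0.17, adjusted p = 0.0727), and WNT5A likewise (0.83 ± 0.16, adjusted p = 0.000656, and 0.40 ± 0.16, adjusted p = 0.179). A test between therapies called none of these 5 genes, with the smallest adjusted p at 0.224 for MMP1. LIF-AS2 had differences of 0.24 ± 0.41 and 0.50 ± 0.41, neither called, and the histone gene H2AC25, at -1.31 ± 0.27 without therapy, had 0.18 ± 0.27 and 0.09 ± 0.27. The test between therapies gave adjusted p-values of 0.267 for LIF-AS2 and 0.0684 for H2AC25.

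**Figure D5:**
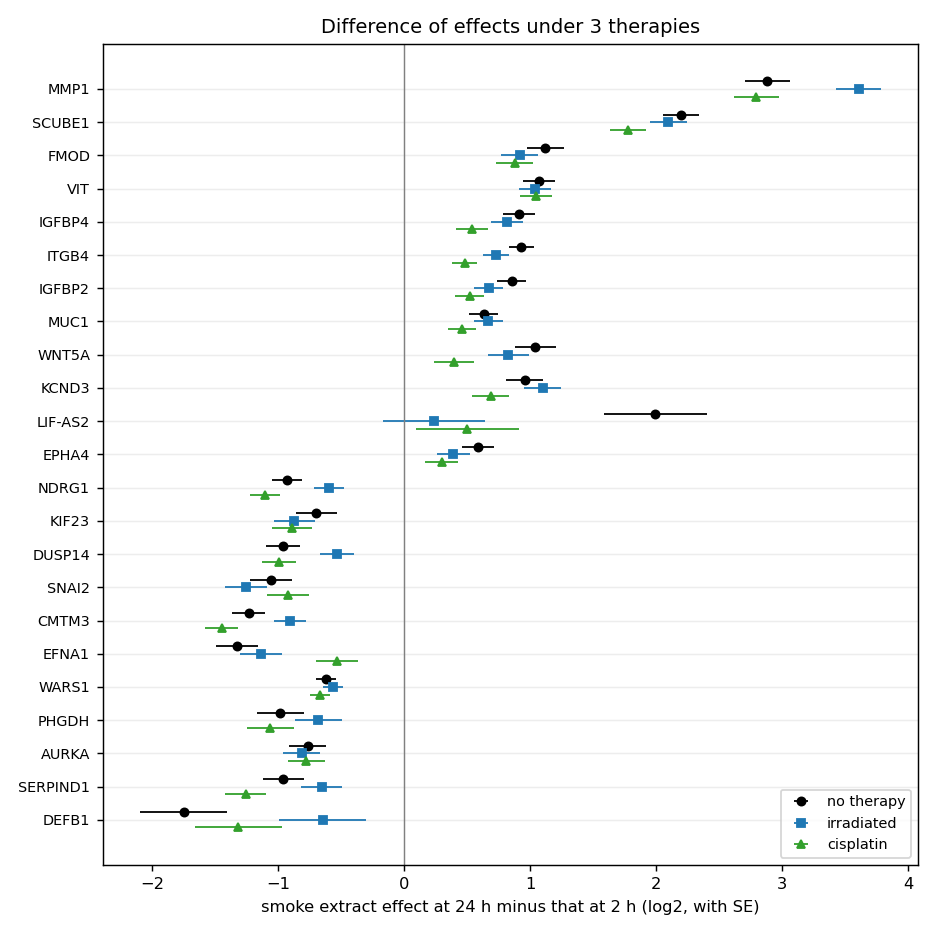
Difference between the effect of smoke extract at 24 h and at 2 h (log2, with SE from the fit) for 23 genes in cells without therapy (black), irradiated cells (blue) and cisplatin-treated cells (green). MMP1, SCUBE1, SNAI2 and WARS1 lie on one side of 0 in all 3 therapies, and the value for LIF-AS2 is 2.00 without therapy but 0.24 after radiation.

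The test over therapies called 67 genes (0.364%) whose difference between the times depended on therapy. The 5 with the smallest p-values were genes of mitosis, KIF20A, TOP2A, TPX2, NCAPG and PLK1. In cells without therapy their differences lay between -0.10 (NCAPG) and 0.07 (TPX2). After radiation they were -1.65 for KIF20A, -1.18 for TOP2A, -1.13 for TPX2, -1.27 for NCAPG and -1.03 for PLK1. Of the 39 genes in the mitosis list, 2 had a lower difference without therapy, 32 after radiation and 15 with cisplatin. Over all genes the shares were 1.64%, 1.87% and 2.28% in that order. Without therapy these 2 were AURKA, which fell late, and KIF23, a transient gene that had risen at 2 h.

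Nicotine at the dose contained in the extract gave 0 called effects at 2 h (0%), 1 at 24 h (0.00543%) and 0 called differences between the times (0%), with limma. These comparisons share the untreated arrays with the smoke extract effect, so that values are set side by side only. For MMP1 the difference with nicotine was -0.21 ± 0.18, for SCUBE1 0.06 ± 0.14, for CYP1A1 -0.02 ± 0.19, for EFNA1 -0.23 ± 0.17 and for PHGDH -0.30 ± 0.19. The median over late genes that fell was -0.24 with nicotine and that over late genes that rose 0.04. With nicotine arrays in place of untreated arrays as controls, 62 late genes fell, 48 of them among the 233, and 665 rose, 368 of them among the 585. The calls of MMP1, SCUBE1, EFNA1, SNAI2, ITGB4, PHGDH, WARS1 and AURKA were kept under that change of controls, while those of LIF-AS2 and H2AC25 were lost.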

How the data were processed

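The authors deposited 1 table of log2 expression values for the 54 arrays, made with Affymetrix Power Tools 1.15.0 per the submitters' processing notes. The summarization steps are not given in the sources used here, and the base of the logarithm was inferred from the values, 0.89 to 13.81 with array medians from 6.43 to 6.64. Arrays give no read depth, so 3 per group limits the precision. Of 33297 rows, 19460 carried exactly 1 gene symbol, 1754 several and 12083 none. The row with the highest mean stood for each of 18417 genes.

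A means model over all 18 groups (limma 3.58.1 in R 4.3.3, 36 residual degrees of freedom, variance prior with trend) gave each contrast, with Benjamini-Hochberg adjustment over all genes and calls under 0.05. The script was tested on simulated data. The labels do not tie cultures to plates, so whether plate moved with the contrast could not be checked. Deviations of same-numbered replicates from their group means correlated at r from -0.31 to 0.33, with 4 of 18 pairs over 0.1. Replicate numbers were not taken as pairs, and a fit with them as a block is given below.

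The comparison, the gene lists and the rules were chosen with earlier results of these data known. Of 656 list memberships 610 were measured, 4 through an older symbol. Genes to name were drawn from the 10 most positive and 10 most negative differences, the 6 largest effects of each class and direction, the leading called members of each list, a fixed set of known smoke and stress genes, and the 5 smallest p-values of the test over therapies. Not all of them are described. Among the 10 most negative differences, those left out include the small RNAs SNORA20, SCARNA10, RNVU1-15 and RNU5F-1. CACNB2, LYPD1, VDR, TIAM1, EFNA3, SLFN5, ITGB4, IGFBP2, MUC1, GJA5, SHMT2 and MTHFD2 fall outside that rule and were named after their values were seen.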

Additional observations from a re-analysis of the deposited data

Results flagged for a closer look

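The effect of smoke extract differed between the 2 harvests for 1159 genes in cells without therapy, by the fitted interaction of extract and time. That interaction itself differed between therapies for 67 genes. The 5 genes with the smallest p-values were mitotic. The difference between the times was lower in irradiated cells than in cells without therapy by these log2 values: -1.60 for KIF20A, a kinesin of cell division, -1.21 for TOP2A, a DNA topoisomerase, -1.19 for TPX2, a spindle assembly factor, -1.16 for NCAPG, a condensin subunit, and -1.09 for PLK1, a mitotic kinase.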

How the results depend on the processing

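Of the 13 kinds of alternative tried, 4 moved a main count by over 1.5 times in addition to leaving out arrays. A fit of only the 4 compared groups called 1050 genes at 2 h and 2690 for the difference, with 328 transient and 1974 late genes. With the background mean of each array as a covariate the difference was called for 2136 genes, with 251 transient and 1555 late. The mean over 3 therapies gave 1710 genes at 2 h, 5096 at 24 h, 281 transient and 1064 sustained. Asking also for 1.5-fold left 167 genes at 2 h, 545 at 24 h, 370 for the difference, 32 transient, 73 sustained and 179 late. The cause of the first 3 changes was not tested. Leaving out 1 array gave 450 to 698 genes at 2 h, 1903 to 2949 at 24 h and 487 to 1199 for the difference, with 65 to 158 transient, 252 to 309 sustained and 362 to 860 late. By direction it gave 23 to 31 transient up, 38 to 135 transient down, 163 to 196 sustained up, 72 to 122 sustained down, 232 to 605 late up and 104 to 304 late down.

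Higher differences were 73.9% of the called ones. The share was 61.2% after quantile normalization, 63% with the covariate, 61.5% with the 4 groups only, 89.4% with nicotine arrays as controls, 39.2% for the mean over therapies and 57.3% past 1.5-fold. Late genes that fell numbered 392 after quantile normalization. With the replicate number as a block, 712 genes were called at 2 h, 3003 at 24 h and 1187 for the difference, with 158 transient, 347 sustained and 843 late. Single genes were also followed, for effects called in the main fit, under each alternative that held the gene. Beside the named genes, these included the genes of the same class and direction without therapy, after radiation and with cisplatin. Ephrin and Eph receptor genes were included too. Genes picked for recurring calls are thus counted, and the counts do not describe the named genes alone. The 2 h effect stayed on its side of the threshold in 5430 comparisons and fell short of it in 320. The 24 h effect did so in 7357 and 371, and the difference in 3575 and 727, and 0 reversed.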

Other observations

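Ephrins are membrane-bound ligands and Eph receptors their tyrosine kinase partners on neighbouring cells. These families were looked at after the values of EFNA1 were seen. Over all genes 1.74% rose and 2.04% fell at 2 h. Of 8 ephrin genes 2 rose and 0 fell at 2 h, EFNA1 itself by 1.43 ± 0.12 and EFNA3 by 0.77 ± 0.10. Of 13 receptor genes 0 rose and 4 fell at 2 h. These were EPHA4 (-1.19 ± 0.09), EPHA5 (-0.43 ± 0.08), EPHA2 (-0.40 ± 0.08) and EPHB4 (-0.31 ± 0.07). The early call of EPHB4 was lost without smoke extract 2 h replicate 2 (adjusted p = 0.0689).

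EPHA4 had levels of 9.45, 9.37 and 9.32 untreated and 8.26, 8.05 and 8.26 with extract at 2 h, then 9.84, 9.84 and 10.03 untreated and 9.33, 9.25 and 9.32 with extract at 24 h. The groups stayed apart at both times while both arms gained the transcript. Its effect at 24 h was -0.60 ± 0.09, and the difference was 0.59 ± 0.13 (limma, adjusted p = 0.00424). The difference was also called for EPHA2 (0.51 ± 0.11) and EPHB4 (0.47 ± 0.10), so that 3 receptors had a higher and 0 a lower difference, beside 1 ephrin higher and 2 lower. Over all genes 4.65% were higher and 1.64% lower. The higher ephrin, EFNA5 (0.48 ± 0.13), lost its call without untreated 2 h replicates 1 or 2, smoke extract 2 h replicate 2 or untreated 24 h replicates 1 or 2 (adjusted p up to 0.0666). In irradiated cells EPHA4 was at -1.14 ± 0.09 early and -0.75 ± 0.09 late, and with cisplatin at -1.22 ± 0.09 and -0.92 ± 0.09, where the difference was not called (adjusted p = 0.132 and 0.207).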
